A study of Mus musculus with 11 samples.

Results

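Nuclear genes for the respiratory chain and ATP synthase were examined in 11 RNA sequencing libraries of mouse primary myoblasts, the dividing precursor cells of skeletal muscle. The genes were chosen by name. They are protein-coding genes of the GENCODE M21 annotation whose symbol begins with Nduf, Uqcr, Cox4, Cox5, Cox6, Cox7, Cox8 or Atp5, together with Sdha, Sdhb, Sdhc and Sdhd. Ndufa4l2, Cox4i1 and Cox4i2 were left out, and genes had to reach a value of 10 in 2 or more libraries. The choice left 88 genes of 22104 in the table. Grouped by name, the 88 genes comprised 37 complex I genes, 8 complex I assembly factors, 4 genes of complex II, 8 of complex III, 14 of complex IV and 17 of ATP synthase. The 37 include Ndufa4, whose product is now counted with complex IV. In all, 89 genes in the table carried such a name. The remaining gene, Cox8c, was listed at 2.14 in 1 wild-type normoxia library and at 0 in the other 10.

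The donors were C57BL/6 mice aged about 8 weeks, either wild-type or Bmal1-/-, and the muscle used was the tibialis anterior. Bmal1, listed under the symbol Arntl, encodes a transcription factor of the circadian clock that binds DNA together with CLOCK. Both genotypes were held for 6 h at 21% oxygen (normoxia) or at 1% oxygen (hypoxia) in growth medium with serum and basic fibroblast growth factor, and total RNA was sequenced. There were 2 libraries of wild-type cells in normoxia and 3 libraries each of wild-type cells in hypoxia, Bmal1-/- cells in normoxia and Bmal1-/- cells in hypoxia. The labels name no Cre driver, deleted exon or clone for the Bmal1-/- cells. Nor do they tell if the replicate libraries come from different animals or cultures. The p-values therefore reflect the scatter of these particular libraries, and part or all of it may be technical.

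Values are normalized read counts, that is, reads per gene divided by 1 size factor per library. Recovered reads numbered 18707697 to 33613328 per library, and every hypoxia library was deeper than every normoxia library. The targeted gene Arntl was at 264 and 267 in wild-type normoxia, 322 to 328 in wild-type hypoxia, 98.8 to 117 in Bmal1-/- normoxia and 128 to 134 in Bmal1-/- hypoxia, so reads remained at this gene in every Bmal1-/- library. The myoblast markers Myod1, Myf5, Pax7, Des, Cdh15 and Itga7 were all expressed, with a summed level of 23792 to 28176. Markers of endothelial cells, leukocytes and adipocytes each summed to at most 59.9 in every library, and the leukocyte markers Ptprc and Adgre1 had no row in the table. The differentiating muscle markers Myog, Mymk, Ckm, Acta1, Mylpf, Myh3, Tnnc2 and Tnnt3 summed to 20260 to 26976 in wild-type and to 32857 to 37857 in Bmal1-/- libraries. The fibroblast markers Pdgfra, Col1a1, Col3a1, Dcn, Thy1 and Cd34 summed to 17459 to 19670 in wild-type and to 13104 to 15792 in Bmal1-/- libraries.

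The respiratory chain sits in the inner mitochondrial membrane. Complex I takes electrons from NADH and complex II takes them from succinate, complex III passes them to cytochrome c, and complex IV hands them to oxygen, while complexes I, III and IV pump protons that drive ATP synthase. Most subunits are encoded in the nucleus, and complexes I, III, IV and ATP synthase also contain subunits made from mitochondrial DNA. Several complex IV subunits have paralogues whose ratio differs between muscle, heart and other tissues.

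Promoters of these genes carry recognised motifs for factors of nuclear respiratory gene expression. RefSeq promoter windows of GRCm38.p6, from 250 bases before to 50 bases after the start, were found for 75 of the 88 genes, in 80 windows. The NRF1 motif GCGCANGCG was present on either strand in 28.8% of these windows and in 6.25% of all 32851 windows in the table. The ETS motif CCGGAAG, bound by GABP, was in 22.5% against 8.86% and the YY1 motif AAGATGG in 15.0% against 6.34%. The CRE motif TGACGTCA was in 5% against 1.79%. The E-box CACGTG, the motif of BMAL1 with CLOCK, was in 8.75% against 7.15%. The hypoxia response core ACGTG, which every CACGTG also contains, was in 25.0% against 19.6%. These matches are descriptions of the letters in the windows and do not show binding. The windows in the table were not limited to expressed genes, so the shares do not compare the 88 genes with other expressed genes. By complex, the NRF1 motif was in 7 of 15 ATP synthase genes with a window, 8 of 33 complex I genes and 1 of 12 complex IV genes. It was in 2 of 3 complex II genes, 2 of 5 complex III genes and 2 of 7 complex I assembly factors. The 120 bases before the start are shown for 4 genes that rose in Bmal1-/- cells and for 2 that responded to hypoxia in opposite directions, each 5′ to 3′ on the strand of the gene, with matches to any of the 6 motifs in capitals.
Atp5k: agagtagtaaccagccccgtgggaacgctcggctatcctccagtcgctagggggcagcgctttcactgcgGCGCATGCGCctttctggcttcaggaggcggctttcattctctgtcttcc
Sdhd: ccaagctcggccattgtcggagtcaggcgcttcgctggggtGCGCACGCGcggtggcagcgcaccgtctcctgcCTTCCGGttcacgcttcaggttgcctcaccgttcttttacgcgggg
Atp5o: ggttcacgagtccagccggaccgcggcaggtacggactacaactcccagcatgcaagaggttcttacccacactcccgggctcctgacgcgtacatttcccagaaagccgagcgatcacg
Atp5g3: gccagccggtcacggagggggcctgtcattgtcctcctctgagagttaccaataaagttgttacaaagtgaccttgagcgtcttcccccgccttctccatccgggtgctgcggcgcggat
Ndufv3: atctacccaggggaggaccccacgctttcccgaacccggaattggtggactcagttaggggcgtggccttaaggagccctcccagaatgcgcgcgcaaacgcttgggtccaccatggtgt
Ndufs7: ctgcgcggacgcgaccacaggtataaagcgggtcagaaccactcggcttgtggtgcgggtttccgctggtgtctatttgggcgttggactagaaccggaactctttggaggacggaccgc
In GRCm38.p6 these stretches are chr5:108434400-108434519 (Atp5k, minus strand), chr9:50603850-50603969 (Sdhd, minus strand), chr16:91931631-91931750 (Atp5o, minus strand), chr2:73911327-73911446 (Atp5g3, minus strand), chr17:31519995-31520114 (Ndufv3, plus strand) and chr10:80249329-80249448 (Ndufs7, plus strand). The stretch of Atp5k holds a palindromic NRF1 match, and that of Sdhd holds an NRF1 match followed by an ETS match. The other 4 stretches hold none of the 6 motifs. In the full windows, Atp5o and Atp5g3 each had 1 NRF1 match, and Atp5g3 also had 1 E-box and 2 matches to the hypoxia response core. Ndufv3 had 1 match to the hypoxia response core, Ndufs7 had 1 YY1 match, and Atp5k had 1 ETS match beside its NRF1 match. Among called genes not shown, Ndufa7, which fell in hypoxia, had 1 E-box and 2 hypoxia response cores in each of its windows. Ndufv2 and Cox6b2, which also fell in hypoxia, had none of the 6 motifs. Ndufb8, which rose in Bmal1-/- cells, had 1 YY1 match.

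All 88 genes were expressed, and most at a high and even level. ATP synthase genes made up 44.7% of the summed values of the 88, complex I 24.3%, complex IV 14.3%, complex III 9.30%, complex II 6.11% and the complex I assembly factors 1.31%. The highest library exceeded the lowest by a median of 1.20 times per gene, against 1.43 times over all 14729 genes tested. This ratio was under 1.25 for 64 of the 88 genes (72.7%) and for 25.7% of all genes. It was under 1.25 for 8 of 8 complex III genes and for 2 of 8 assembly factors, which had lower values. Per kb of principal transcript, the highest gene of each complex was Ndufa4 at 5414 in complex I, Sdhd at 2478 in complex II, Uqcrh at 5949 in complex III, Cox8a at 6908 in complex IV and Atp5b at 15837 in ATP synthase. Ndufa4 carries a complex I name, but its product is now counted with complex IV. Uqcrh encodes the hinge protein of complex III, and Atp5b encodes the catalytic beta subunit of ATP synthase. The highest assembly factor was Ndufaf2 at 368 per kb.

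Each complex IV isoform pair was dominated by the form that most tissues use. Per kb, Cox6a1 was at 4150 and the heart and muscle form Cox6a2 at 60.5. Cox7a2 was at 4077, the related supercomplex factor Cox7a2l at 3328 and the heart and muscle form Cox7a1 at 22.1. Cox8a was at 6908 and the heart and muscle form Cox8b at 89.7, while Cox6b1 was at 4670 and Cox6b2, known as the testis form, at 272. The muscle forms were therefore present but far below their partners. Cox7b was at 2840 per kb. The genes for subunit c, the membrane ring of ATP synthase, were at 530 (Atp5g1), 3403 (Atp5g2) and 5971 (Atp5g3) per kb. For Atp5g2, a near-identical pseudogene copy in the table had 27.3% of its value, so the split of reads between them is uncertain.

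**Figure D1:**
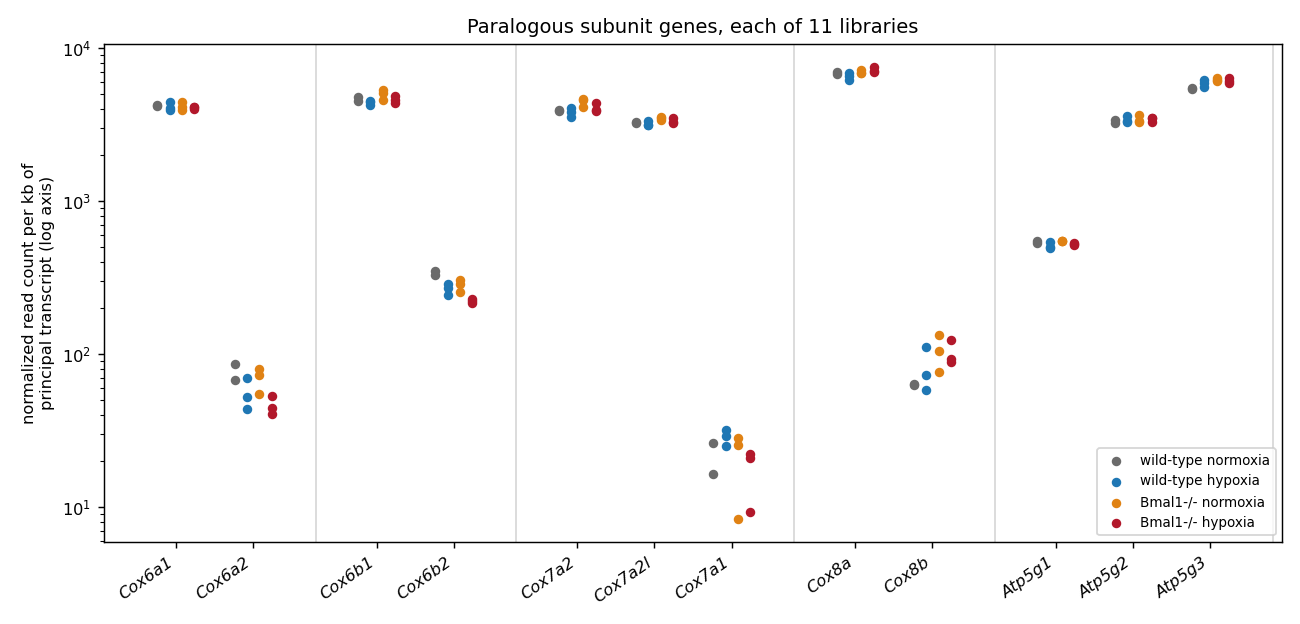
Normalized read count per kb of principal transcript (log axis) for paralogous subunit genes, 1 point per library, coloured by group. Cox6a1, Cox7a2, Cox8a and Cox6b1 lie far above Cox6a2, Cox7a1, Cox8b and Cox6b2 in all 11 libraries, and Atp5g3 lies above Atp5g2 and Atp5g1.

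As a share of all values in a library, the 88 genes together made up 0.881% and 0.883% in wild-type normoxia, 0.817% to 0.865% in wild-type hypoxia, 0.894% to 0.911% in Bmal1-/- normoxia and 0.844% to 0.865% in Bmal1-/- hypoxia. Within each genotype every hypoxia library was below every normoxia library on this scale. The total behind this share includes the gene with the most reads, which held 19.4% to 21.6% of a library's reads. On the scale of size factors the summed values overlapped between oxygen levels in wild-type cells, at 197820 and 202782 in normoxia and 191301 to 202587 in hypoxia. They also overlapped in Bmal1-/- cells, at 205067 to 214131 in normoxia and 198675 to 206679 in hypoxia. For complex II the shares overlapped between oxygen levels in both genotypes, with means of 0.0529% and 0.0526% in wild-type and 0.0538% and 0.0526% in Bmal1-/- normoxia and hypoxia. In bulk RNA, fewer cells of a type and less RNA per cell cannot be told apart. Single libraries also stood apart across the whole list. The third wild-type hypoxia library was below the gene's own mean for 77 of 88 genes, with a median deviation of -0.09 on the log2 scale, and the first Bmal1-/- normoxia library was above it for 75, with a median of 0.08.

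**Figure D2:**
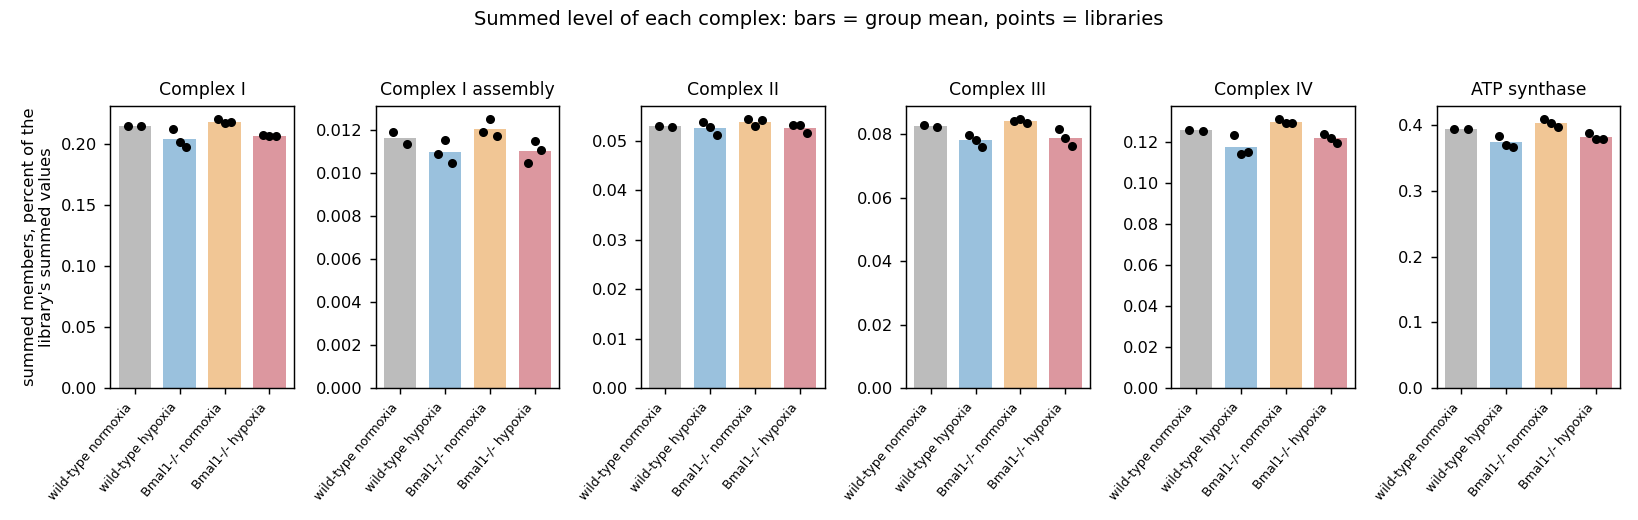
Summed value of the genes of each complex as a percent of the library's summed values. Bars are group means and points are libraries. The ATP synthase means are 0.394% and 0.374% in wild-type normoxia and hypoxia and 0.403% and 0.382% in Bmal1-/- normoxia and hypoxia.

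**Figure D3:**
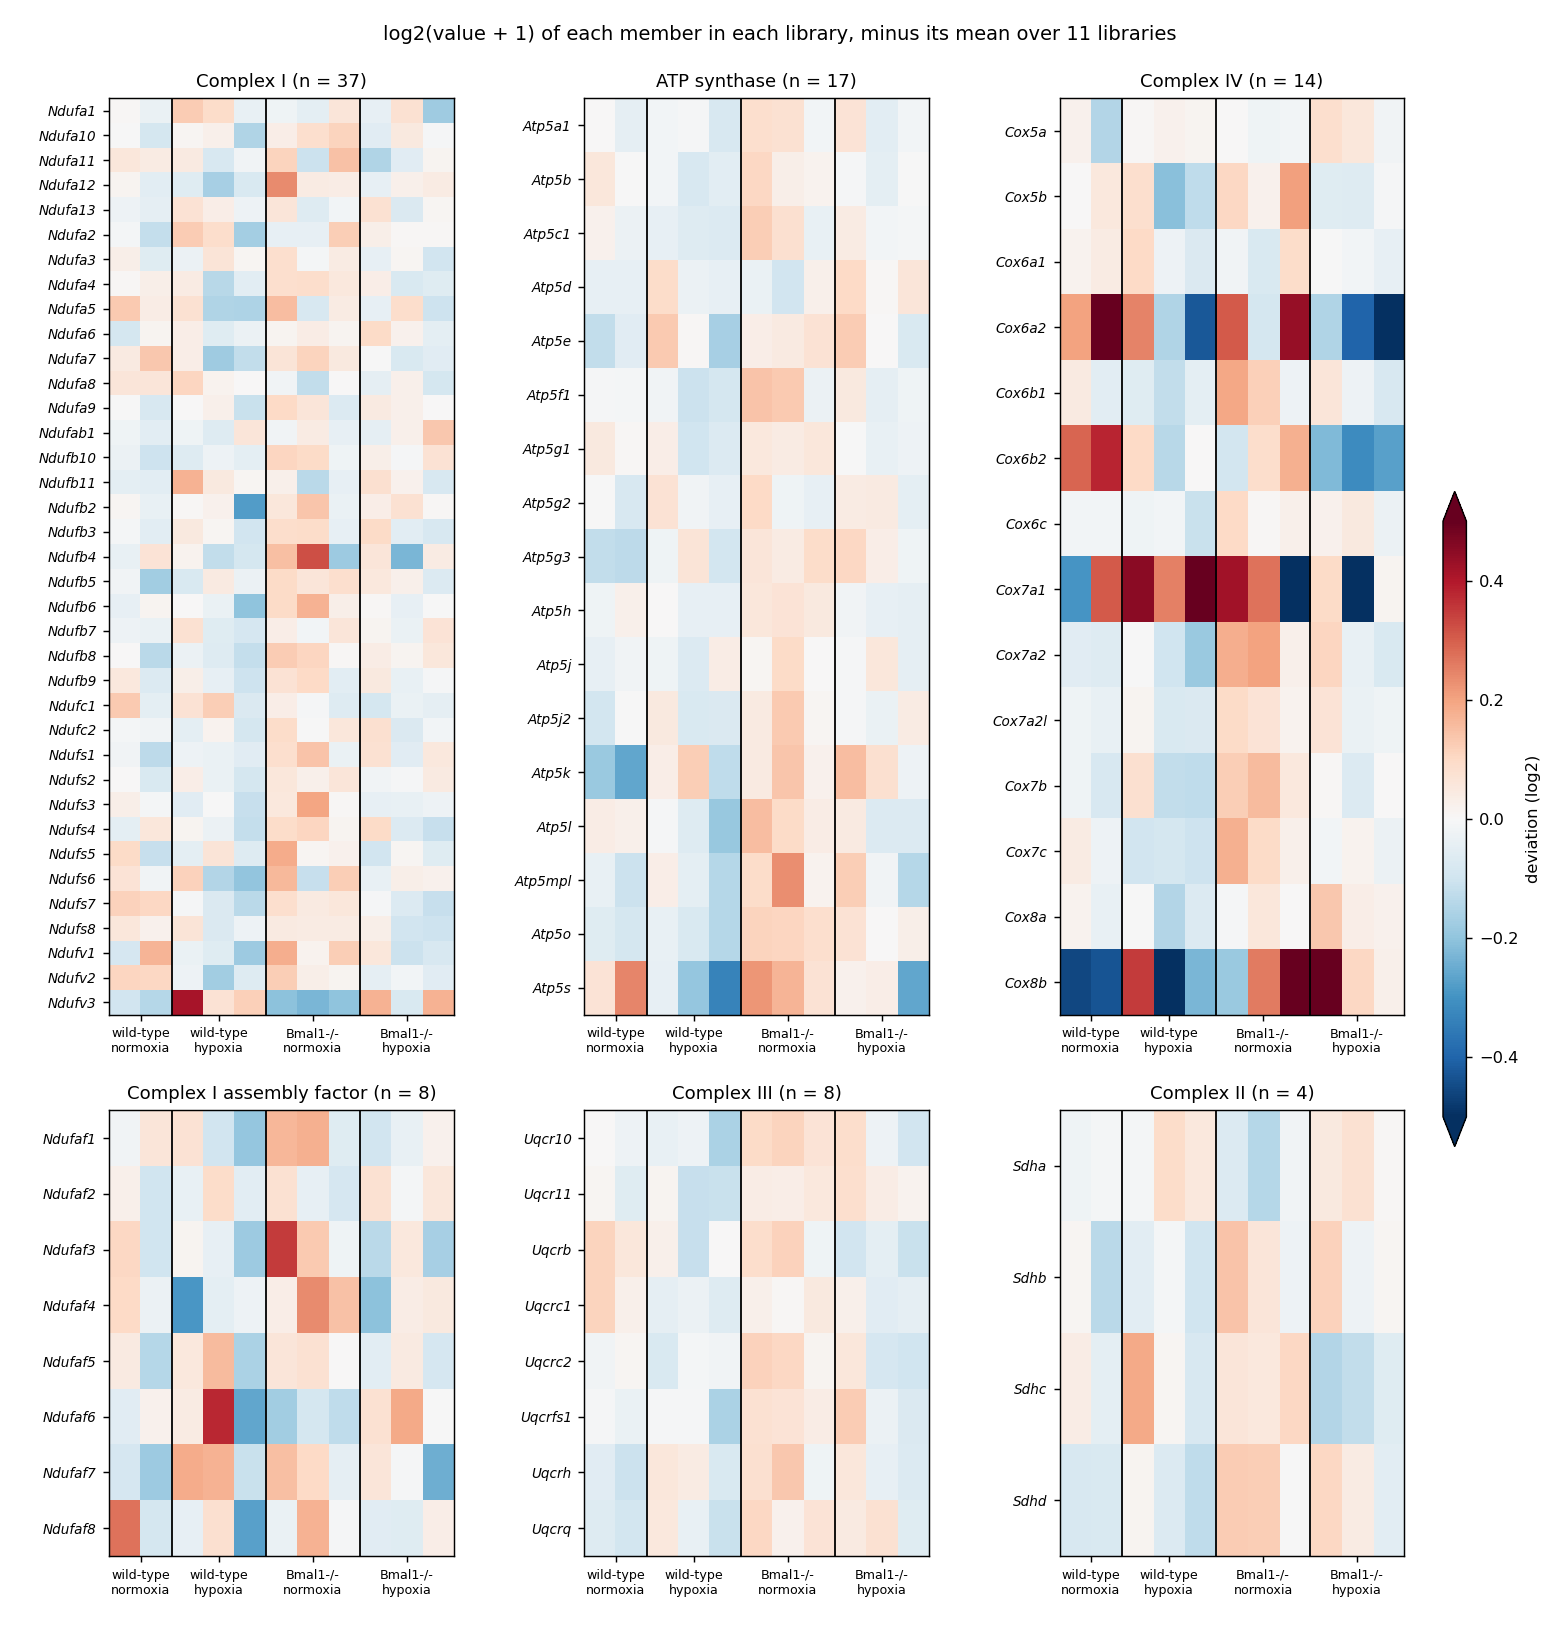
Deviation of log2(value + 1) of each of the 88 genes from its mean over 11 libraries, by complex and group. The third wild-type hypoxia column is mostly below the mean (77 of 88 genes) and the first Bmal1-/- normoxia column mostly above it (75 of 88); colours saturate at 0.5, beyond which only complex IV genes with low values fall.

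The first comparison asked how the genes responded to 6 h of 1% oxygen. In neither genotype alone did any of the 88 genes pass the test. With both genotypes pooled, the complex I gene Ndufv3 rose by 24.0%, and the complex I genes Ndufs7, Ndufv2 and Ndufa7 and the complex IV gene Cox6b2 fell by 9.50% to 20.9%. The remaining 83 genes did not pass the test. The test was limma on log2(value + 1) with Benjamini-Hochberg adjustment over all 14729 genes, and the threshold was an adjusted p of 0.05.

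In wild-type cells, 0 of 88 genes rose and 0 fell, against 1.7% and 0.468% of all tested genes. At an unadjusted p under 0.05, 3 of the 88 were higher (3.41%) and 6 lower (6.82%), against 7.53% and 6.05% of all tested genes, and edgeR and DESeq2 also called 0. The median difference of the 88 genes was -0.02 on the log2 scale, and it ran from -0.04 to 0.01 when 1 library was left out. In Bmal1-/- cells, limma called 0 of 88 in either direction, against 3.15% rising and 0.937% falling among all tested genes. At an unadjusted p under 0.05, 2 were higher (2.27%) and 14 lower (15.9%), against 10.1% and 7.48% of all tested genes. There edgeR called 0, and DESeq2 called Ndufv3 as higher. The median difference was -0.06, with 73 of 88 genes negative, where 7568 of all 14729 were. The 88 genes can shift together in a single library, as shown above, so counts of signs are not counts of independent results. The median deviation per library had a pooled SD of 0.04 between libraries of the same group. Over both genotypes, 1 of 88 rose and 4 fell, against 4.89% and 2.56% of all tested genes. With 1 library left out of a group of 3, the falling count ran from 1 to 6. It was 6 without the first wild-type hypoxia library, where 327 of all genes fell. Without the second it was 1, where 283 of all genes fell, against 377 with every library. Leaving out either wild-type normoxia library leaves 1 in that group, and fewer genes fell there, both among the 88 and among all genes. The median was -0.04 with 66 of 88 genes negative, and over all genes it was -0.003 with 7519 of 14729 negative. The 95% interval of the mean hypoxia effect lay inside a 1.25-fold change in either direction for 79 of 88 genes and inside a 1.5-fold change for 86.

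**Figure D4:**
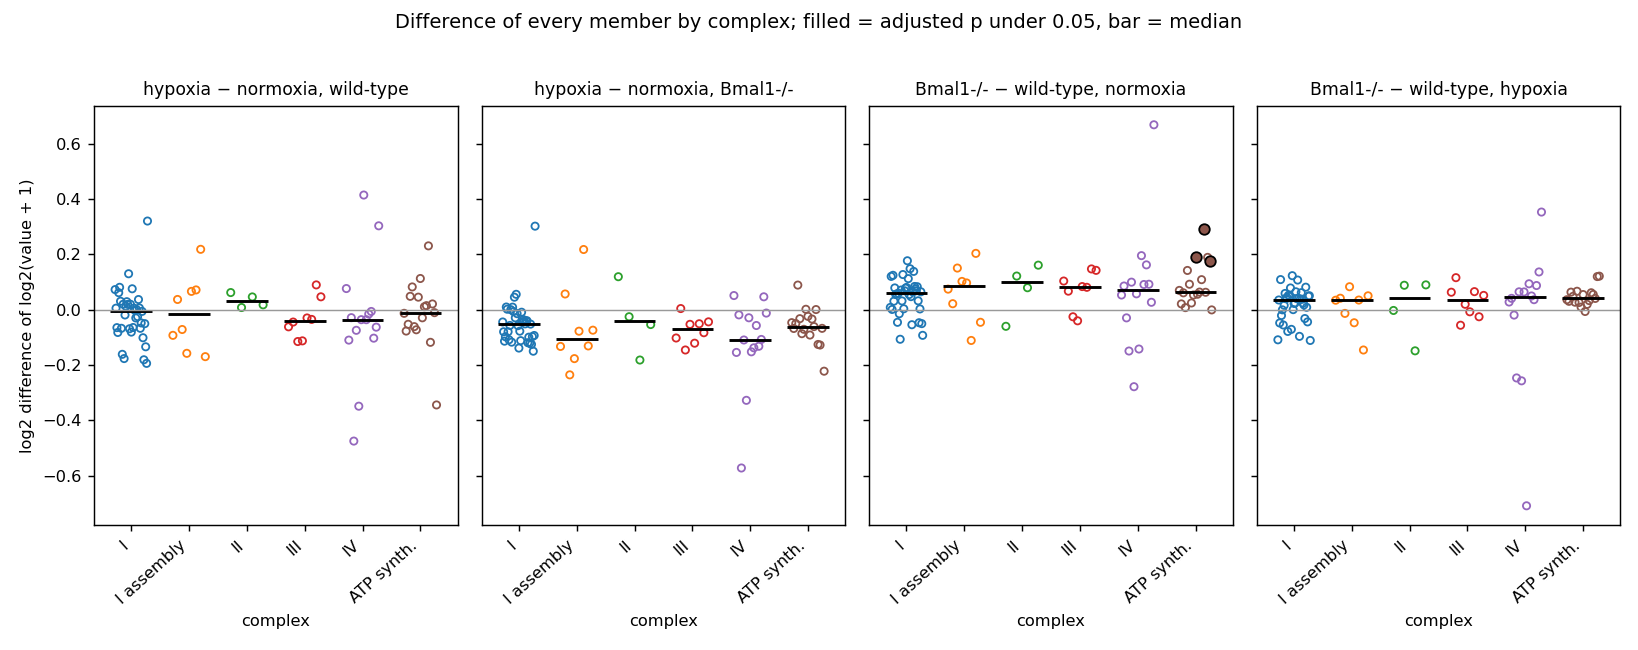
Log2 difference of each gene by complex in the 4 pairwise comparisons; filled points passed limma's test at an adjusted p under 0.05 and bars are medians. Only Atp5o, Atp5g3 and Atp5k in normoxia are filled, and the medians over all 88 genes are -0.02, -0.06, 0.07 and 0.04 from left to right, the first of which changes sign when some libraries are left out.

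Ndufv3 (chr17:31520115-31531331, GRCm38), an accessory subunit of the NADH-binding arm of complex I, had 685 and 663 in wild-type normoxia, 975, 770 and 795 in wild-type hypoxia, 635, 625 and 636 in Bmal1-/- normoxia and 826, 694 and 825 in Bmal1-/- hypoxia. Every hypoxia library was above every normoxia library. The mean hypoxia effect was 0.31 (SE 0.07, adjusted p = 0.0116), with 0.32 in wild-type and 0.30 in Bmal1-/- cells. Without the second wild-type normoxia library the adjusted p was 0.0529. The other complex I genes that passed the test went the other way.

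Ndufv2 (chr17:66078638-66101559) encodes an iron-sulphur subunit of the NADH-binding arm. It had 2107 and 2101 in wild-type normoxia, 1921, 1733 and 1867 in wild-type hypoxia, 2126, 1996 and 1974 in Bmal1-/- normoxia and 1894, 1937 and 1880 in Bmal1-/- hypoxia. All 6 hypoxia libraries were below all 5 normoxia libraries. It fell by 0.14 on the log2 scale (SE 0.04, adjusted p = 0.0292). Ndufs7 (chr10:80249121-80256794) encodes the iron-sulphur subunit next to the quinone site, and had 1089 and 1080, then 1000, 956 and 915 in the wild-type groups and 1066, 1037 and 1045, then 1000, 958 and 929 in the Bmal1-/- groups. Its normoxia and hypoxia libraries did not overlap either, and it fell by 0.15 (SE 0.04, adjusted p = 0.0284). Ndufa7 (chr17:33824572-33838317), an accessory subunit, ranged from 1981 to 2108 in the 5 normoxia libraries and from 1699 to 1967 in the 6 hypoxia libraries, and fell by 0.15 (SE 0.04, adjusted p = 0.0469). These calls were near the threshold. Leaving out 1 of the 11 libraries in turn ended the call in 7 cases for Ndufs7 (adjusted p up to 0.0885), 6 for Ndufv2 (up to 0.0863) and 10 for Ndufa7 (up to 0.177).

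Cox6b2 (chr7:4751792-4753094) was lower in hypoxia and lower in Bmal1-/- cells. It had 193 and 205 in wild-type normoxia, 169, 143 and 158 in wild-type hypoxia, 148, 167 and 178 in Bmal1-/- normoxia and 135, 126 and 130 in Bmal1-/- hypoxia. Within each genotype the oxygen levels did not overlap, and within each oxygen level the genotypes did not overlap. The mean hypoxia effect was -0.34 (SE 0.08, adjusted p = 0.0177) and the mean genotype effect -0.27 (SE 0.08, adjusted p = 0.0297). The hypoxia call was lost without the second wild-type normoxia library (adjusted p = 0.0799), and the genotype call was lost in 7 of 11 cases with 1 library left out (adjusted p up to 0.112) and with DESeq2 (adjusted p = 0.0948). Its partner Cox6b1, whose RNA level was far higher, did not pass the test.

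In complexes II and III, ATP synthase and the assembly factors no gene passed limma's test for hypoxia, and the values with the smallest p were as follows. Sdha, the flavoprotein subunit of complex II, had 4086 to 4483 in normoxia and 4491 to 4809 in hypoxia, with a mean effect of 0.09 (SE 0.03, adjusted p = 0.110). Uqcrb of complex III had -0.13 (SE 0.04, adjusted p = 0.0649). Atp5l of ATP synthase, subunit g, had -0.12 (SE 0.04, adjusted p = 0.0963), and 4 pseudogene copies of it in the table carried 28.0% of its value. Ndufaf4, an assembly factor, had -0.17 (SE 0.07, limma adjusted p = 0.148). In complex IV, Cox7c did not pass with limma but passed with DESeq2 (-0.11, adjusted p = 0.0455). The muscle form Cox6a2 had 46.0 and 58.2 in wild-type normoxia, 47.7, 35.8 and 29.5 in wild-type hypoxia, 49.6, 37.5 and 54.3 in Bmal1-/- normoxia and 35.9, 30.0 and 27.7 in Bmal1-/- hypoxia. Its mean effect was -0.52 (SE 0.17, adjusted p = 0.0742), the groups overlapped in wild-type cells, and without the first wild-type hypoxia library the adjusted p was 0.0426. Atp5b, the highest gene of all 88, had 30317 to 32547 in normoxia and 28671 to 30270 in hypoxia, a difference of -0.07 (SE 0.03, adjusted p = 0.119) whose groups did not overlap.

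Some markers of muscle differentiation and fibroblasts also moved with oxygen. Of 8 differentiating muscle markers, Myog and Mymk fell by 0.25 and 0.27 on the log2 scale (limma adjusted p = 0.0316 and 0.0484). These 2 calls ended in 7 and 9 of 11 cases with 1 library left out. The other 6 did not pass, and the median of the 8 was -0.07. Of 6 fibroblast markers 3 rose and 3 did not pass. Among all tested genes 4.89% rose and 2.56% fell. The part of these markers in the results for the respiratory genes was not tested. Library depth was higher in every hypoxia library, and its part was likewise not tested.

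The second comparison asked how Bmal1-/- cells differed from wild-type cells. In normoxia 3 ATP synthase genes, Atp5o, Atp5g3 and Atp5k, were higher in Bmal1-/- cells by 13.0% to 22.3%. In hypoxia no gene passed the test. With both oxygen levels pooled, these 3 genes, Ndufb8 of complex I and Sdhd of complex II rose by 8.89% to 13.0%, and Cox6b2 fell by 17.0%.

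In normoxia 3 of 88 genes rose and 0 fell, against 3.44% and 5.66% of all tested genes, so the rising share was near that of all genes. Without the first or second Bmal1-/- normoxia library 0 of the 88 rose, where 341 and 312 of all genes rose, against 506 with every library. Leaving out either wild-type normoxia library leaves 1 in that group, and fewer genes rose there, both among the 88 and among all genes. At an unadjusted p under 0.05, 14 were higher (15.9%) and 1 lower (1.14%), against 10.6% and 12.8% of all tested genes, and edgeR and DESeq2 also called 0 as lower. The median difference was 0.07, with 71 of 88 genes positive, where 7526 of all 14729 were. Here too the signs are not independent, and the median deviation per library had a pooled SD of 0.04 within groups. In hypoxia limma called 0 in either direction, against 3.33% rising and 5.61% falling among all tested genes, and edgeR and DESeq2 called 0. At an unadjusted p under 0.05, 3 were higher (3.41%) and 2 lower (2.27%), against 9.6% and 11.4% of all tested genes. The median was 0.04, with 63 of 88 positive, where 7574 of all 14729 were. Over both oxygen levels 5 of 88 rose and 1 fell, against 7.39% and 9.8% of all tested genes. The rising count depended on single libraries. With 1 library left out of a group of 3, it was 10 without the third Bmal1-/- normoxia library and 9 without the first wild-type hypoxia library. It was 1 without the third wild-type hypoxia or the first Bmal1-/- hypoxia library, and 2 to 5 in the other cases. In the fits named, in this order, 1097, 939, 945 and 909 of all genes rose, against 1089 with every library. Without either wild-type normoxia library, which leaves 1 in that group, fewer genes rose among the 88 and among all genes. The median was 0.05 with 69 of 88 positive, where all tested genes had 0.01 with 7587 of 14729 positive. All 17 ATP synthase genes had a positive estimate, of which 3 passed the test. The 95% interval of the mean genotype effect lay inside a 1.25-fold change for 84 of 88 genes.

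Atp5o (chr16:91925214-91931687) encodes the subunit of the stator stalk that gives ATP synthase its sensitivity to oligomycin. It had 4175 and 4095 in wild-type normoxia, 4244, 4131 and 3940 in wild-type hypoxia, 4700, 4694 and 4621 in Bmal1-/- normoxia and 4580, 4356 and 4438 in Bmal1-/- hypoxia. All 6 Bmal1-/- libraries were above all 5 wild-type libraries. The mean genotype effect was 0.15 (SE 0.03, adjusted p = 0.00292), with 0.18 in normoxia (adjusted p = 0.0212) and 0.12 in hypoxia (adjusted p = 0.0782). The mean call held in each of the 11 fits with 1 library left out (adjusted p up to 0.0171), and the normoxia call was lost in 4 of them (up to 0.141). An antisense gene overlaps Atp5o, with a mean value of 1.93.

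Atp5k (chr5:108433244-108434448), subunit e of the membrane part of ATP synthase, had 948 and 900 in wild-type normoxia, 1101, 1172 and 986 in wild-type hypoxia, 1111, 1187 and 1094 in Bmal1-/- normoxia and 1198, 1139 and 1058 in Bmal1-/- hypoxia. The wild-type normoxia libraries were the lowest, and the other 3 groups overlapped. The difference was 0.29 in normoxia (SE 0.08, adjusted p = 0.0311) and 0.06 in hypoxia (adjusted p = 0.700). The mean genotype effect was 0.18 (SE 0.05, adjusted p = 0.0314). Atp5g3 (chr2:73908447-73911326), the most abundant subunit c gene, was also lowest in wild-type normoxia, with 3954 and 3933 in wild-type normoxia, 4249, 4505 and 4048 in wild-type hypoxia, 4492, 4429 and 4589 in Bmal1-/- normoxia and 4627, 4410 and 4251 in Bmal1-/- hypoxia. The difference was 0.19 in normoxia (SE 0.05, adjusted p = 0.0321) and 0.12 over both oxygen levels (SE 0.03, adjusted p = 0.0238). Leaving out either wild-type normoxia library, or the first or second Bmal1-/- normoxia library, ended both normoxia calls, with an adjusted p of up to 0.200 for Atp5k and 0.154 for Atp5g3, whose normoxia call also ended without the third Bmal1-/- normoxia library. The mean calls were lost in 6 of 11 cases for Atp5k (up to 0.121) and in 4 for Atp5g3 (up to 0.0741).

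Ndufb8 (chr19:44548572-44555440), an accessory subunit of the membrane arm of complex I, had 1900 to 2088 in the 5 wild-type libraries and 2096 to 2279 in the 6 Bmal1-/- libraries, which did not overlap. The mean genotype effect was 0.13 (SE 0.04, adjusted p = 0.0313). Sdhd (chr9:50596357-50603812), a membrane anchor of complex II, had 2884 and 2888 in wild-type normoxia, 3078, 2901 and 2790 in wild-type hypoxia, 3329, 3317 and 3040 in Bmal1-/- normoxia and 3268, 3130 and 2933 in Bmal1-/- hypoxia. The genotypes overlapped in hypoxia, and the mean effect was 0.12 (SE 0.04, adjusted p = 0.0463). Each call was lost in 8 of 11 cases with 1 library left out, with an adjusted p of up to 0.165 for Ndufb8 and 0.113 for Sdhd, and the Sdhd call was also lost with edgeR.

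**Figure D5:**
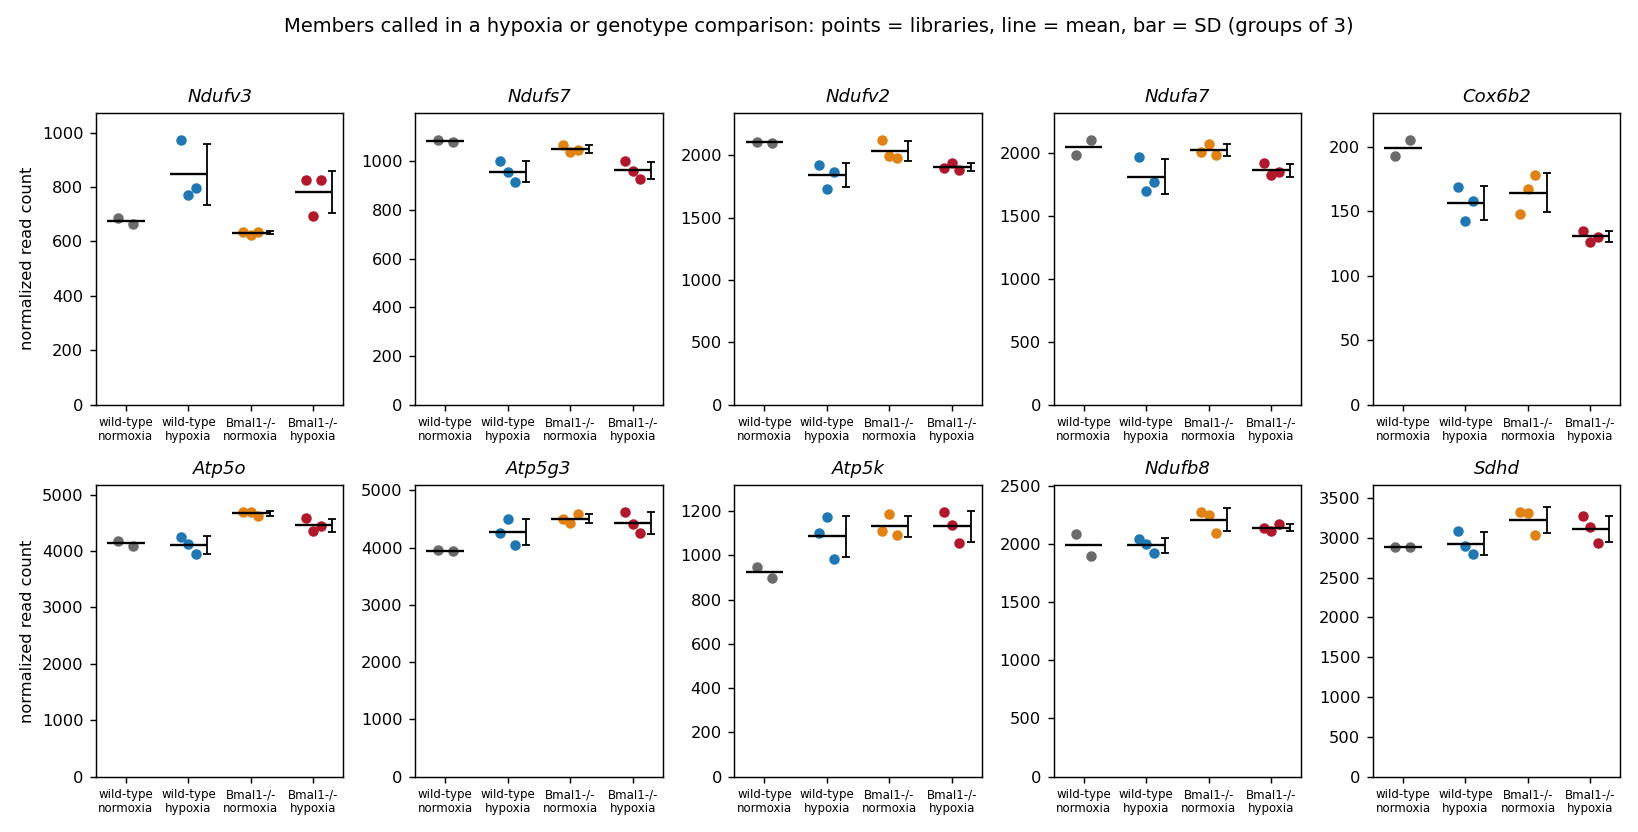
Normalized read count of the 10 genes called in at least 1 hypoxia or genotype comparison, with 1 point per library, a line at the group mean and a bar of 1 SD for groups of 3. Ndufv3 is higher and Ndufs7, Ndufv2 and Ndufa7 lower in every hypoxia library than in every normoxia library, and Atp5o and Ndufb8 are higher in every Bmal1-/- library than in every wild-type library.

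Complexes III and IV and the assembly factors had no gene that rose in Bmal1-/- cells. Uqcr11 of complex III had 2016 to 2201 in wild-type and 2206 to 2308 in Bmal1-/- libraries, an estimate of 0.09 (SE 0.03, adjusted p = 0.0902) with no overlap. Cox7a2, the form of its subunit with the highest RNA level, had 2353 to 2676 in wild-type and 2542 to 3078 in Bmal1-/- libraries. Its estimate was 0.14 (SE 0.05, limma adjusted p = 0.0515), and Cox7a2 passed with DESeq2 (adjusted p = 0.0293). The muscle form Cox8b had 22.5 and 22.8 in wild-type normoxia, 40.0, 21.1 and 26.4 in wild-type hypoxia, 27.3, 37.5 and 47.8 in Bmal1-/- normoxia and 44.6, 33.6 and 31.8 in Bmal1-/- hypoxia. Its estimate was 0.51 (SE 0.20, adjusted p = 0.103), and the genotypes overlapped. Among the assembly factors the smallest p belonged to Ndufaf4, at 0.09 (SE 0.07, adjusted p = 0.384).

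All 8 differentiating muscle markers rose in Bmal1-/- cells, with a median of 0.51, and all 6 fibroblast markers fell, with a median of -0.70. Of the 6 myoblast markers, Myf5 rose by 0.55 and Itga7 by 0.16 on the log2 scale, and 4 did not pass. The 6 had 3 positive and 3 negative estimates, with a median of -0.006. Of 3 pericyte and smooth muscle markers, Cspg4 fell by 1.24. The other 2 had positive estimates and did not pass. Among all tested genes 7.39% rose and 9.8% fell. Whether these shifts had a part in the genotype differences of the respiratory genes was not tested.

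The last comparison asked whether the response to hypoxia differed between the genotypes. No gene passed: limma called 0 of 88 in either direction, against 0.00679% rising and 0% falling among all tested genes, and edgeR and DESeq2 also called 0. At an unadjusted p under 0.05, 0 were higher and 4 lower (4.55%), against 3.01% and 2.31% of all tested genes. These 4 were Sdhc, Atp5k, Ndufaf7 and Uqcrh. The median difference of the 88 genes was -0.04, with 65 of 88 negative, where 7434 of all 14729 were. It ran from -0.06 to -0.02 when 1 library was left out. Sdhc, the other membrane anchor of complex II, had 2439 and 2298 in wild-type normoxia, 2710, 2393 and 2251 in wild-type hypoxia, 2481, 2469 and 2554 in Bmal1-/- normoxia and 2148, 2183 and 2282 in Bmal1-/- hypoxia. The hypoxia libraries lay below the normoxia libraries in Bmal1-/- cells and overlapped them in wild-type cells, and the difference of the effects was -0.23 (SE 0.09, 95% interval -0.42 to -0.03, adjusted p = 0.905). The interval lay inside a 1.25-fold difference for 67 of 88 genes and inside a 1.5-fold difference for 83.

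Genes that act with the complexes were followed in lists of known function. In the list of subunit and turnover genes under control of hypoxia-inducible factor, 4 of 5 rose in hypoxia, against 4.89% of all tested genes. Ndufa4l2, a paralogue of Ndufa4, rose by 2.01 on the log2 scale (SE 0.19, limma adjusted p = 1.1e-05). Cox4i2, the hypoxic form of subunit IV of complex IV, rose by 1.50 (SE 0.21, limma adjusted p = 0.000584). Its values were low, at 20.3 and 19.4 in wild-type normoxia and 8.75 to 15.2 in Bmal1-/- normoxia, against 28.7 to 89.6 in hypoxia. Higd1a, which binds complex IV, rose by 1.05, and Lonp1, a mitochondrial protease, by 0.36. Cox4i1, the usual form, had -0.01 and did not pass. Cox4i2 and Ndufa4l2 also fell in Bmal1-/- cells, by 0.74 (adjusted p = 0.0284) and 0.64 (adjusted p = 0.0299) on the log2 scale. These genotype calls ended in 6 and 7 of 11 cases with 1 library left out and with edgeR (adjusted p = 0.0535 and 0.0599). Among the 13 subunits encoded in mitochondrial DNA, 4 fell in hypoxia and 9 did not pass, where 2.56% of all tested genes fell. The 4 were mt-Atp8 by 0.59, mt-Nd1 by 0.43, mt-Nd2 by 0.36 and mt-Cytb by 0.28 on the log2 scale. Some of the 13 varied widely within a group, such as mt-Co3 with 1337 and 4800 in wild-type normoxia. The median of the 13 was -0.11 in hypoxia and 0.12 in Bmal1-/- cells, where mt-Nd1 rose by 0.19 (adjusted p = 0.0693 without the second wild-type normoxia library).

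Assembly factors outside the Nduf names, regulators and carriers were followed in the same way. For the mean hypoxia effect 4.89% of all tested genes rose and 2.56% fell. For the mean genotype effect 7.39% rose and 9.8% fell, and for genotype in normoxia 3.44% rose and 5.66% fell. For hypoxia, none of the 10 tested complex I, 4 complex II, 21 complex IV and 5 ATP synthase assembly genes passed the test in limma, nor did any of 9 genes of complex III, cytochrome c and its assembly; at an unadjusted p under 0.05, 1 of these genes was higher and 5 lower, where 11.7% and 10.1% of all tested genes were. In Bmal1-/- cells, Sco1, which delivers copper to complex IV, rose by 0.25 (SE 0.05, adjusted p = 0.00159), and Hccs, which attaches haem to cytochrome c, rose by 0.20 (SE 0.05, adjusted p = 0.00898, and 0.0553 without the second wild-type normoxia library). Of 18 regulators of respiratory gene expression, Gabpb2, a GABP subunit, rose in hypoxia by 0.15 (adjusted p = 0.0481), a call that ended in 9 of 11 cases with 1 library left out. Lrpprc and Mterf3, which act on mitochondrial transcripts, rose in Bmal1-/- cells by 0.13 and 0.22 (adjusted p = 0.0175 and 0.0353), and Tfam, the mitochondrial transcription factor, was 0.40 higher in normoxia (adjusted p = 0.0310). With 1 library left out these 3 calls ended in 1, 5 and 2 of 11 cases, the second wild-type normoxia library among them each time, with an adjusted p of up to 0.0858, 0.180 and 0.349. Of 6 tested carriers and channels, Vdac1, a pore of the outer membrane, rose in hypoxia by 0.18 (adjusted p = 0.00733).

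Reads of some genes may be shared with other loci. A pseudogene copy at least 95% identical over at least 200 bases was present in the table for 18 of the 88 genes, and it carried over 10% of the gene's value for Ndufb4 (78.2%), Atp5l (28.0%), Atp5g2 (27.3%) and Ndufa12 (10.6%). A gene on the opposite strand overlapped 30 of the 88 and one on the same strand overlapped 11, and the sources used here do not say whether counting used strand. Of the 10 called genes, only Atp5o had a copy, at 0.485% of its value, or an overlapping gene with a row in the table.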

How the data were processed

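The table deposited by the authors holds a signal for 22104 Ensembl genes in 11 libraries, namely read counts scaled by a size factor for each library, and 0 columns of values were left unused. Tools named in the submitters' processing notes are STAR, HTSeq, RSEM, DESeq2, Picard and bcl2fastq, with the mm10 build. Which of them made the counts is not given in the sources used here. After undoing the scaling, 100% of values were whole reads within 0.01 read. Symbols, positions and lengths came from GENCODE M21 (GRCm38), which named 21819 identifiers and left 285 without a symbol, and levels per kb use the length of the principal transcript.

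The 14729 genes that reached 10 in 2 or more libraries were tested. A model with 4 groups and 7 contrasts was fitted to log2(value + 1) with the trended variance of limma 3.58.1 (R 4.3.3), and Benjamini-Hochberg adjustment ran over all tested genes. All tests were two-sided. The scale understates changes of low genes, and percent changes are from the same scale. A pair of mean effects averages the hypoxia effect over genotypes and the genotype effect over oxygen levels, so they share libraries with the other comparisons, and comparisons that use the same group share that group's libraries. Alternatives were a pseudocount of 0.5 or 5, no filter on low values, TMM scaling, edgeR 4.0.16 (quasi-likelihood) and DESeq2 1.42.0 on the recovered reads, and leaving out each library. For the mean hypoxia effect over all genes, edgeR called 715 genes as higher and 374 as lower and DESeq2 called 710 and 390, where limma called 720 and 377. In simulated data for the hypoxia effect in Bmal1-/- cells, with 14512 genes in the fit, limma called 23.9% of 67 genes shifted by 0.25 on the log2 scale, 77.6% of those shifted by 0.5 and 98.5% of 66 shifted by 1.

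The labels give no replicate numbers that link groups. Reads of library pairs within a group differed by more than counting noise, with a chi-square of 4.33 to 20.9 times its degrees of freedom, so no library was counted as a duplicate. Members, related lists, motifs and alternatives were chosen with earlier results of these data known. Named genes were those called (up to 10 a comparison), per complex the highest per kb and the smallest p in each mean effect, the tissue isoform groups, and up to 4 called genes of each related list. Sdhc, Ndufaf7, Uqcrh, Cox7c, Cox7a2 (as a difference) and Atp5b (as a difference) were named after their values were seen. Pseudogene copies were found with BLAST 2.17.0 between transcripts.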

Additional observations from a re-analysis of the deposited data

How the results depend on the processing

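With every library kept, the median log2 difference of the 88 genes kept its sign in each of the 7 comparisons under 6 alternatives, for example -0.04 to -0.03 for the mean hypoxia effect and 0.04 to 0.05 for the mean genotype effect. The counts of called genes stayed within 1.5 times except with DESeq2, which called 1 gene as higher in Bmal1-/- hypoxia (Ndufv3) and 0 as lower in the mean genotype effect. With 1 library left out, called genes numbered 0 to 1 higher and 0 to 1 lower for hypoxia in Bmal1-/- cells, and 0 to 3 higher for genotype in normoxia. They numbered 0 to 1 higher and 0 to 6 lower for the mean hypoxia effect, and 1 to 10 higher and 0 to 1 lower for the mean genotype effect. Without the third Bmal1-/- normoxia library 10 of the 88 genes passed as higher by genotype, and without the first wild-type hypoxia library 9 did. Among all genes 1097 and 939 passed as higher in these fits, against 1089 with every library. Without the third wild-type hypoxia or the first Bmal1-/- hypoxia library, 1 of the 88 passed, where 945 and 909 of all genes did. The cause was not tested. Ndufa7 lost its hypoxia call with no filter (adjusted p = 0.0632) and with TMM scaling (adjusted p = 0.0535), and Sdhd its genotype call with no filter, TMM scaling and edgeR (adjusted p = 0.0647, 0.0643 and 0.0517).

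With 1 library left out, 191 of the 616 estimates (88 genes in 7 comparisons) changed sign at least once. Their absolute value with all libraries had a median of 0.02 and reached 0.17. Among estimates given by name these were Atp5k for hypoxia in Bmal1-/- cells (-0.042 to 0.048), Atp5k for genotype in hypoxia (-0.0072 to 0.117), Sdhc for hypoxia in wild-type cells (-0.029 to 0.105), Cox4i1 for hypoxia (-0.021 to 0.018, and 0.00055 with TMM scaling), and Atpif1 (-0.022 to 0.0088) and Dmac2 (-0.082 to 0.0057) for genotype. Of 23 calls named for genes outside the 88, 13 held in each fit with 1 library left out. Among the others, Gabpb2 also lost its call with no filter and DESeq2 (adjusted p = 0.0628 and 0.0551), Mymk with no filter, TMM scaling and edgeR (adjusted p = 0.0641, 0.0504 and 0.0530), and Cox4i2 its genotype call with no filter and DESeq2 (adjusted p = 0.0514 and 0.0650). Over all genes, the difference of the hypoxia effects had 1 higher and 0 lower call with limma, 4 and 1 with DESeq2 and none with edgeR. No paired analysis was possible because the labels carry no replicate numbers that link the groups. Groups of 2 or 3 libraries limit what can be seen. The simulated shifts were given to genes drawn from the tested genes at large, and their recovery is for 1 comparison. The 88 genes varied less between libraries than all tested genes, with a median ratio of 1.20 against 1.43. The simulated recovery therefore does not give the recovery for the 88 genes or for the mean effects. Low genes such as Cox7a1 (3.26 to 12.4) have wide errors.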

Other observations

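Some genes of the complexes carry names outside the rule in this annotation. Atpif1, the inhibitor of ATP synthase that acts when the proton gradient collapses, had 2343 and 2278 in wild-type normoxia, 2100, 2123 and 2214 in wild-type hypoxia, 2435, 2249 and 2252 in Bmal1-/- normoxia and 2111, 2122 and 2179 in Bmal1-/- hypoxia. All 6 hypoxia libraries were below all 5 normoxia libraries, with a mean effect of -0.11 (SE 0.03, limma adjusted p = 0.0660). Usmg5, a small membrane subunit of ATP synthase, had -0.11 (SE 0.04, adjusted p = 0.128), and Dmac2, an assembly factor of complex I, had -0.10 (SE 0.08, adjusted p = 0.511). For genotype the same genes had 0.00, 0.07 and -0.04, and none passed.

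Ndufb4c, annotated as a processed pseudogene of Ndufb4, had 319 to 442 in the 11 libraries, where Ndufb4 itself averaged 478. The other 5 rows with such names that are not protein-coding had at most 37.2 in any library.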
